A study of Mus with 4 samples.

Results

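A set of 10 macrophage genes was followed across tumors that differ in a hairpin against Nrf3 and in the diet of the host: Arg1, Nos2, Acod1, Mrc1, Cd163, Folr2, Lyve1, Cx3cr1, Trem2 and Adgre1. They are 10 of 19505 named genes on the arrays, each read by 1 probe set, and they were chosen by their known roles together with their values on these same arrays, so every difference below is a description without a test. Each of the 4 groups has 1 array, and no difference between 2 arrays has a replicate check.

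Macrophages take different states that are read from such genes. The enzymes Arg1, Nos2 and Acod1 redirect arginine and the citric acid cycle during activation: arginase turns arginine into ornithine and urea, inducible nitric oxide synthase turns it into nitric oxide, and the Acod1 product makes itaconate. The receptors Mrc1, Cd163, Folr2 and Lyve1 mark macrophages settled in tissue, often near vessels, while Cx3cr1, Trem2 and Adgre1 (F4/80) mark monocyte-derived, lipid-handling and general macrophages.

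Renca, a renal adenocarcinoma line of the mouse, was injected under the skin of the flank, stably carrying a control hairpin (shCtrl) or one against Nrf3 (shNrf3). The hosts were male BALB/cCrSlc mice, bought at 4 to 6 weeks of age and given normal chow (NC; CE-2) or a high-fat diet (HFD; HFD-60) for 17 weeks, and tumors were taken 2 weeks after injection. Groups are written as hairpin and diet: shCtrl-NC and shNrf3-NC on chow, then shCtrl-HFD and shNrf3-HFD. Only the injected cells carried a hairpin, so any macrophage of the host had neither construct, and the labels do not say whether a line was 1 clone or whether an array held 1 tumor or several.

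The arrays differed beyond these genes. Medians over all rows were 5.73 to 5.81 on the log2 scale. Nfe2l3, the gene of Nrf3, read 6.22 on shCtrl-NC and 5.56 on shNrf3-NC but 5.77 on shCtrl-HFD and 6.05 on shNrf3-HFD. In HFD it thus went against the label, but all 4 readings lay near the negative control medians (5.35 to 5.39). They cannot show whether the knockdown held in either diet, and groups are named below by the labels of their arrays. Among 10021 genes with a mean of 5.73 or more, the background used below, the median difference was 0.14 for shNrf3 minus shCtrl in NC, -0.14 for the same in HFD, 0.26 for HFD minus NC with shCtrl and -0.03 with shNrf3. Of genes that differed 2-fold or more, 74.6% were higher in the first of these comparisons, 24.8% in the second and 79.3% in the third, against 62.7%, 38.4% and 58% after cyclic loess and 61%, 45.2% and 52.6% when counted from each comparison's own median. The tumor cell keratin Krt18 read 14.5 to 15.9 on the 4 arrays, while the renal tubule markers Pax2, Pax8, Cdh16, Havcr1, Slc34a1 and Umod lay below the negative control median on all 4. Skeletal muscle and adipocyte markers stood apart on shNrf3-NC: the summed signal of 15 muscle genes was 14.17 on that array and 9.58 to 10.81 on the other 3 (log2 of the sum), and that of 9 adipocyte genes was 13.51 against 10.95 to 12.30. The part of that tissue in the results below was not tested.

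Arg1 and Mrc1 were the most firmly detected of the 10. Negative control rows, which serve as a measure of background, had medians of 5.35 to 5.39 and a 95th percentile between 8.97 and 9.35. Arg1, Mrc1 and Nos2 read above the 95th percentile on all 4 arrays, Acod1 and Cd163 on 2, Folr2 and Lyve1 on 1 (shNrf3-NC), and Cx3cr1, Trem2 and Adgre1 on none. Every reading of the 10 lay above the median of the negative controls on its array, Cx3cr1 on shNrf3-NC by only 0.10. Levels of different genes are not ranked here, since probe sets differ in brightness.

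**Figure D1:**
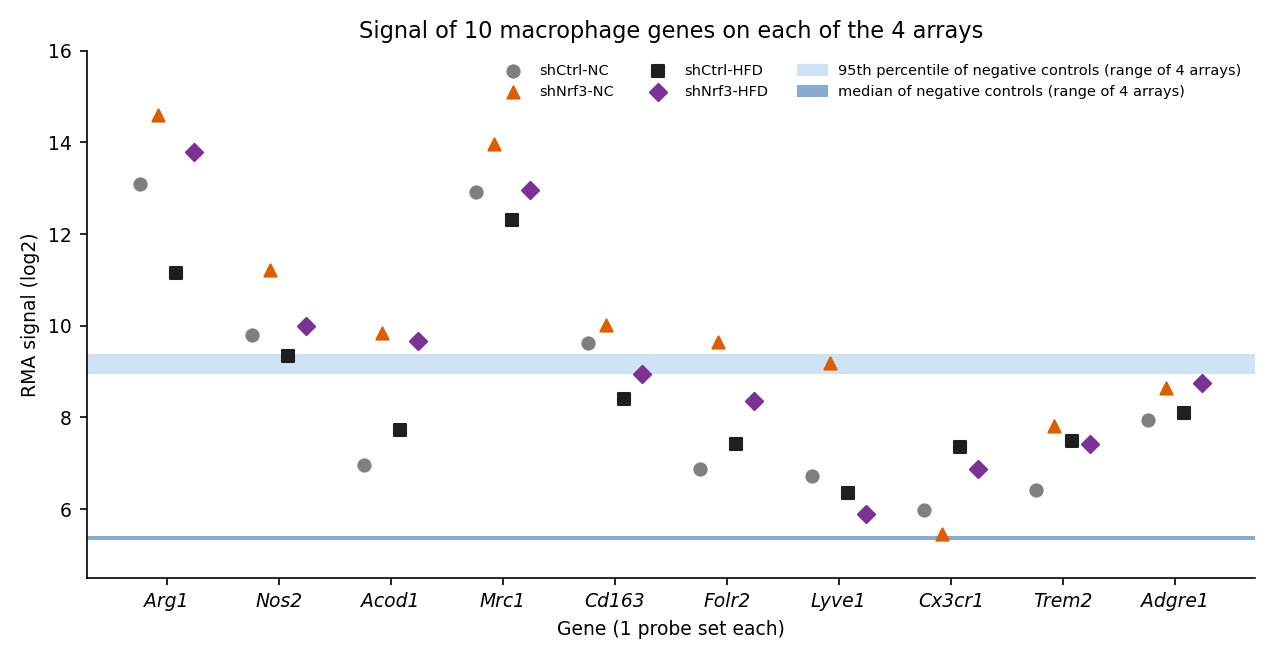
The log2 signal of each of the 10 genes on the 4 arrays (grey circles shCtrl-NC, orange triangles shNrf3-NC, black squares shCtrl-HFD, purple diamonds shNrf3-HFD), with bands for the range over arrays of the negative controls' median and 95th percentile. shNrf3-NC is the highest array for 8 of the 10 genes, with Adgre1 highest on shNrf3-HFD and Cx3cr1 on shCtrl-HFD. The share of all genes highest on shNrf3-NC was not counted.

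By construct, the 10 genes were mostly higher on the arrays labelled shNrf3, more so in NC. In NC, 7 of 10 were 2-fold or more higher, against 13.2% of the background genes, and 0 were 2-fold or more lower, against 4.47%. In HFD, 2 of 10 were higher, against 2.3%, and 0 were lower, against 6.95%. The members had a median difference of 1.40 in NC and 0.65 in HFD. Arg1 and Acod1 passed 2-fold upward in each diet, as did 80 of the 10021 genes (0.798%), and 7 of the 10 differed upward by any amount in both, against 23.5% of genes. Counted from the background median, 6 of the 10 genes were higher in NC and 3 in HFD (Folr2 being added at 1.09). In either diet 0 were lower. For NC, 1026 of the 10021 background genes passed 2-fold upward by this rule and 655 passed it downward. For HFD, the upward count was 368 and the downward count 447. The choice of the genes used these contrasts, so the counts are given beside the background without being read against it.

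**Figure D2:**
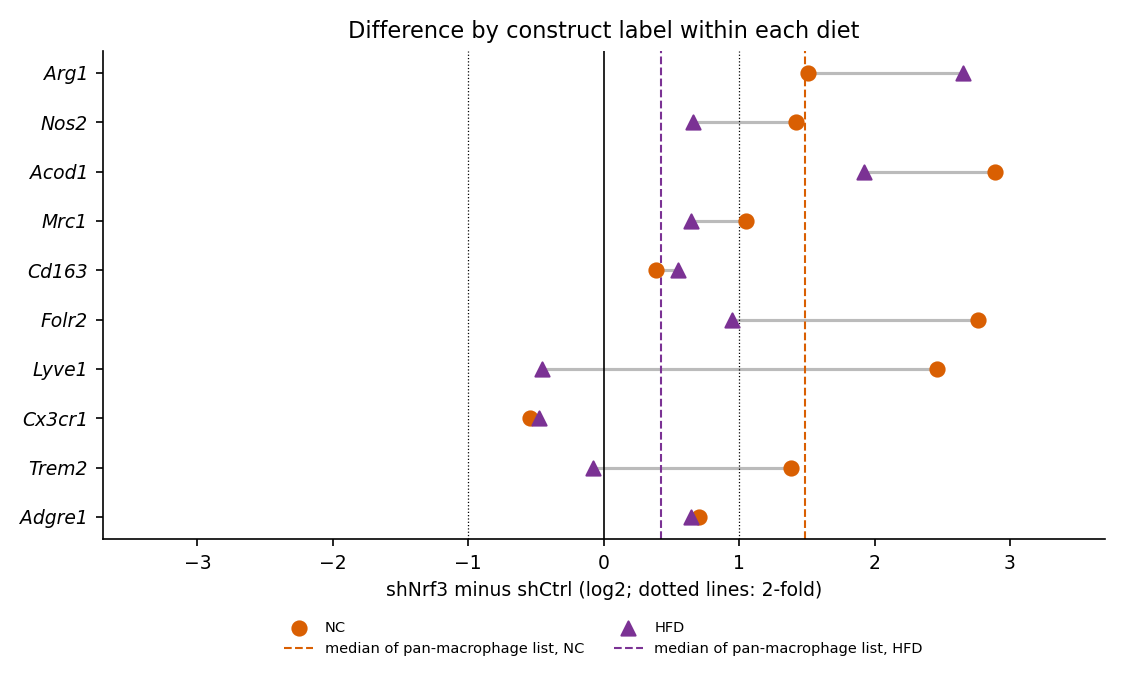
Difference by construct label (shNrf3 minus shCtrl, log2) for each gene in NC (orange circles) and HFD (purple triangles), with dashed lines at the median of 19 pan-macrophage genes (1.49 in NC and 0.42 in HFD) and dotted lines at 2-fold. Arg1 is the gene with the clearly larger difference in HFD, while Lyve1 and Trem2 lie above 0 in NC and below 0 in HFD.

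General macrophage genes were also higher with shNrf3 in NC, and differed less evenly in HFD. Of 19 measured pan-macrophage genes, 15 were 2-fold or more higher with shNrf3 in NC and 0 lower, and 4 were higher and 0 lower in HFD. In NC the largest were Aif1 (2.11), the integrin gene Itgam (1.90) and Spi1 (1.89), which encodes the myeloid factor PU.1, and in HFD the oxidase subunit gene Cybb (1.27), the pore-forming Mpeg1 (1.22) and Itgam (1.17). In HFD C1qb (-0.65), Cd14 (-0.31), Mertk (-0.17) and Laptm5 (-0.11) were on the other side of 0. The summed signal of the list was 16.25 on shCtrl-NC, 17.75 on shNrf3-NC, 16.80 on shCtrl-HFD and 17.45 on shNrf3-HFD. In whole tumor RNA more macrophages, more RNA per macrophage and other leukocytes that share genes of this list cannot be told apart. Differences of the 10 genes are also given below relative to the pan-macrophage median, a description that does not separate these.

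Arg1 read 13.08 on shCtrl-NC, 14.59 on shNrf3-NC, 11.15 on shCtrl-HFD and 13.80 on shNrf3-HFD. Both shNrf3 arrays read above both shCtrl arrays, and the control tumor on HFD was the lowest. With shNrf3 it was 2.85-fold higher in NC (1.51 on the log2 scale) and 6.29-fold higher in HFD (2.65). Relative to the pan-macrophage median these differences were 0.02 and 2.23, so in NC arginase differed as the general macrophage genes did and in HFD by far more.

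Nos2, whose enzyme competes with arginase for the same amino acid, had the same order of arrays as Arg1. It read 9.81 on shCtrl-NC, 11.23 on shNrf3-NC, 9.34 on shCtrl-HFD and 9.998 on shNrf3-HFD. It was 2.68-fold higher with shNrf3 in NC (1.42) and 1.58-fold higher in HFD (0.66), or -0.07 and 0.24 relative to the pan-macrophage median. The classical and the alternative activation enzyme were thus both higher on the shNrf3 arrays, and the array with the most Arg1 signal was also the one with the most Nos2 signal.

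Acod1, the itaconate enzyme gene, read 6.95 on shCtrl-NC, 9.85 on shNrf3-NC, 7.73 on shCtrl-HFD and 9.66 on shNrf3-HFD. The shNrf3 arrays stood well above the shCtrl arrays in both diets, by 2.89 in NC and 1.92 in HFD. It was the one gene of the 10 that lay more than 1 above the pan-macrophage median in both diets (1.40 and 1.498). Its shCtrl readings lay above only 76.8% and 87.8% of negative control rows, so the size of its fold is uncertain.

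Of 16 other measured genes of arginine and itaconate metabolism, 5 were 2-fold or more higher with shNrf3 in NC and 0 lower, with a median of 0.79, and 0 were higher or lower in HFD, with a median of 0.05. In NC the largest were Slc7a2, which imports arginine (2.28 or more, since its shCtrl-NC reading lay below the control median and was set to it), the spermidine synthase gene Srm (1.95) and the citrate carrier gene Slc25a1 (1.48). In HFD they were Ddah2 (0.89), which clears an inhibitor of nitric oxide synthases, Srm (0.82) and the arginine transporter gene Slc7a1 (-0.67). The second arginase gene, Arg2, differed by 0.94 in NC and 0.00 in HFD, where Arg1 had its largest difference.

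Among the receptors, Mrc1, the mannose receptor CD206, read 12.92 on shCtrl-NC, 13.97 on shNrf3-NC, 12.32 on shCtrl-HFD and 12.97 on shNrf3-HFD. It was 2.07-fold higher with shNrf3 in NC (1.05, but 0.76 after cyclic loess) and 1.57-fold higher in HFD (0.65). Its profile over the 4 arrays was the closest of any pair of the 10 to that of Nos2, at a root mean square distance of 0.134 on the log2 scale.

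Cd163, the receptor that takes up haemoglobin bound to haptoglobin, read 9.63 on shCtrl-NC, 10.02 on shNrf3-NC, 8.39 on shCtrl-HFD and 8.94 on shNrf3-HFD. It followed diet more than construct: both NC arrays read above both HFD arrays, while the construct differences were 0.39 in NC and 0.55 in HFD. In NC it lay 1.10 below the pan-macrophage median. In the same route, Hmox1, which breaks down haem, differed by 1.38 in NC and 1.30 in HFD, and the haptoglobin gene Hp by 1.88 and -0.52.

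Folr2, the folate receptor beta, read 6.88 on shCtrl-NC, 9.64 on shNrf3-NC, 7.42 on shCtrl-HFD and 8.37 on shNrf3-HFD. The shNrf3 arrays were higher by 2.76 in NC and 0.94 in HFD, or 1.28 and 0.52 above the pan-macrophage median. The HFD difference passed 2-fold after cyclic loess (1.10). Folr1, the related receptor of epithelium, read below the negative control median on all 4 arrays.

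Lyve1, a hyaluronan receptor of lymphatic vessels that perivascular macrophages also carry, read 6.73 on shCtrl-NC, 9.19 on shNrf3-NC, 6.34 on shCtrl-HFD and 5.89 on shNrf3-HFD. It was high on 1 array only. The construct difference was 2.46 in NC and -0.46 in HFD. On shNrf3-NC it lay above 95.4% of negative control rows, against 60.4% to 73.8% on the other 3.

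Lymphatic markers gave a mixed reading. Prox1, the factor that defines lymphatic endothelium, and Mmrn1 and Nts read below the negative control median on all 4 arrays. Of 6 other lymphatic markers 0 were 2-fold or more higher or lower with shNrf3 in NC, with Pdpn at 0.81, Reln at 0.53 and Tbx1 at -0.28. The summed signal of the 9 lymphatic genes was 10.01 on shCtrl-NC, 10.54 on shNrf3-NC, 9.58 on shCtrl-HFD and 9.51 on shNrf3-HFD. Lyve1 had the same order of the arrays. So did Pdpn, which had the highest readings of the 9 genes (9.30, 10.10, 8.82 and 8.65) and so weighs most in the sum. Without Pdpn the sum was 8.65, 8.61, 8.28 and 8.36, with shCtrl-NC highest, a sum added after seeing the data. The part of lymphatic vessels in the Lyve1 signal was not tested.

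Genes of tissue-resident macrophages outside the 10 were mostly higher with shNrf3 in NC, but less so than the pan-macrophage genes. Their median difference there was 0.99, against 1.49 for the pan-macrophage list. Of 18 residency genes measured, 9 were 2-fold or more higher with shNrf3 in NC and 1 lower. The largest were the carbonyl reductase gene Cbr2 (2.22), the clotting factor gene F13a1 (2.12) and the chemokine gene Ccl8 (1.83). The scavenger receptor gene Stab1 was the lower one (-1.01). In HFD 1 was higher (F13a1, 1.05) and 2 lower, the growth factor gene Igf1 (-1.57) and Stab1 (-1.02), with a median of -0.07 that turned to 0.07 when counted from the median of all genes. The C-type lectin genes Cd209f and Cd209g, which have close relatives in their family, had Lyve1's order of arrays: in the same group order Cd209f read 7.27, 8.501, 6.49 and 6.30 and Cd209g 6.23, 7.501, 5.64 and 5.25. Timd4 (5.28 to 5.99) and Vsig4 (5.004 to 5.50) read close to the negative control median on the 4 arrays.

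**Figure D3:**
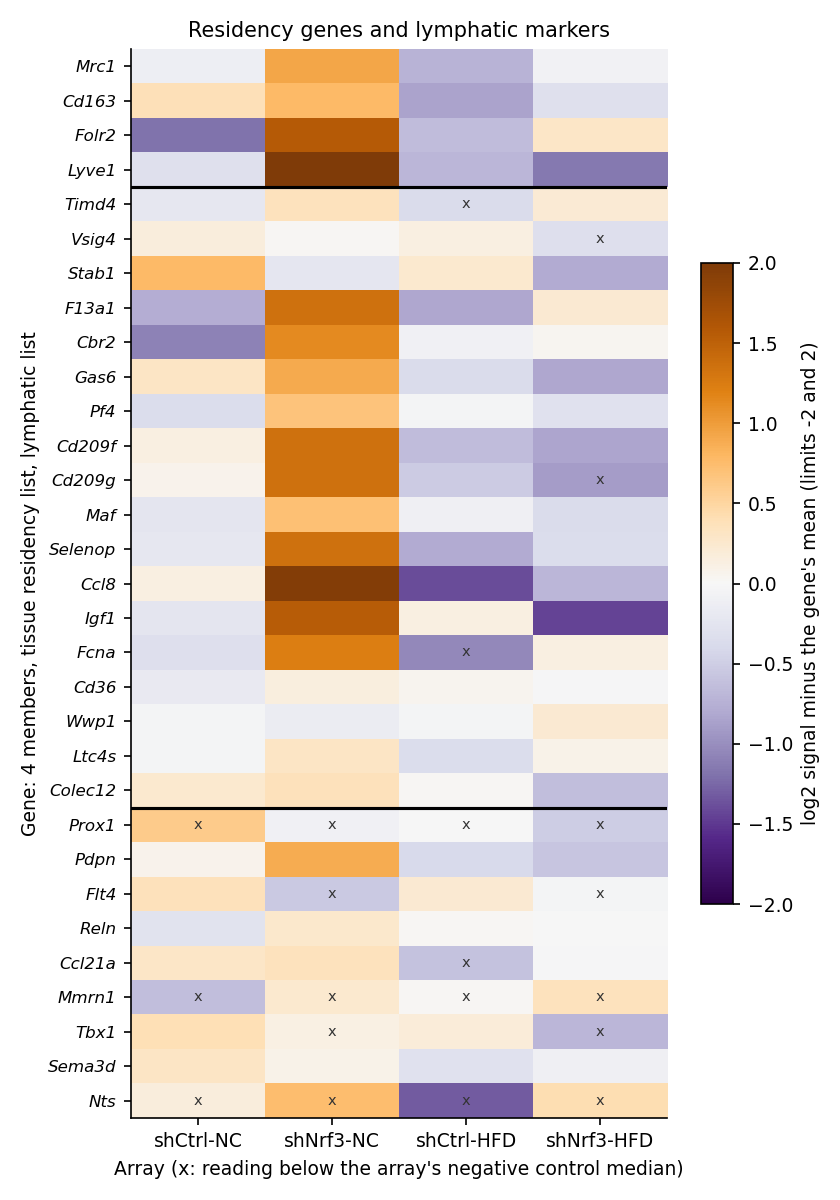
Heat map of the log2 signal minus each gene's mean over the 4 arrays (columns) for Mrc1, Cd163, Folr2 and Lyve1, the 18 tissue residency genes and the 9 lymphatic markers (rows, in blocks). Orange is above and purple below the gene's mean, and an x marks a reading below the array's negative control median. The shNrf3-NC column is the most orange in the upper blocks, while Prox1, Mmrn1 and Nts carry an x on all 4 arrays.

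Cx3cr1, the fractalkine receptor of patrolling monocytes and resident macrophages, went the other way. It read 5.99 on shCtrl-NC, 5.45 on shNrf3-NC, 7.35 on shCtrl-HFD and 6.88 on shNrf3-HFD. It was lower with shNrf3 in both diets, by 0.54 and 0.48 in size, and both HFD arrays read above both NC arrays. Its NC readings lay above only 61.7% and 52.2% of negative control rows, so the NC level is close to background. Its ligand gene Cx3cl1 read 6.49 to 6.90 over the 4 arrays, and the proteases that shed that ligand, Adam10 and Adam17, differed by -0.07 and -0.18 in NC and by 0.61 and 0.02 in HFD.

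Trem2, a lipid-sensing receptor of tumor and fat macrophages, read 6.42 on shCtrl-NC, 7.80 on shNrf3-NC, 7.49 on shCtrl-HFD and 7.41 on shNrf3-HFD. The control tumor on NC was low and the other 3 arrays lay within 0.39 of each other. The construct difference was 1.38 in NC and -0.08 in HFD, where the sign turned after cyclic loess (0.04). Tyrobp, its signalling adaptor, differed by 0.92 and 0.16, and the kinase gene Syk downstream of it by 0.91 and 0.40.

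Adgre1, the F4/80 antigen, read 7.94 on shCtrl-NC, 8.64 on shNrf3-NC, 8.10 on shCtrl-HFD and 8.75 on shNrf3-HFD. It had the narrowest range of the 10 (0.81) and differed by construct by 0.70 in NC and 0.65 in HFD, with both shNrf3 arrays above both shCtrl arrays. The colony-stimulating factor receptor gene Csf1r, also general to macrophages, read 11.10, 11.75, 11.60 and 12.02 in the same group order.

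Genes that go with lipid-laden macrophages, as Trem2 does, were mostly higher with shNrf3 in NC. Their median there was below the 1.49 of the pan-macrophage list. Of 17 measured, 9 were 2-fold or more higher with shNrf3 in NC and 0 lower, with a median of 1.06, and 0 were higher and 1 lower in HFD, with a median of 0.05. Galectin 3 (Lgals3) differed by 2.18 and apolipoprotein E (Apoe) by 2.01 in NC. Fabp4, a fatty acid carrier that adipocytes also make, differed by 1.55 in NC and -1.33 in HFD, alongside adipocyte markers that differed by medians of 1.75 and -1.22. The 5 of 6 adipocyte genes that were 2-fold or more higher in NC, and the 5 lower in HFD, include adiponectin (Adipoq, 3.35 and -1.33) and resistin (Retn, 5.23 and -1.92).

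Diet gave a mixed picture. With shCtrl, 2 of the 10 genes were 2-fold or more higher in HFD, against 14.5% of genes, and 2 were lower, against 3.79%, with a median of -0.11. With shNrf3, 1 was higher, against 1.76%, and 5 were lower, against 4.93%, with a median of -0.90. Counted from the background median, 1 was higher and 2 lower with shCtrl, and 1 higher and 4 lower with shNrf3. By the same rule 811 of the 10021 genes were higher and 730 lower with shCtrl, and 197 and 455 with shNrf3. These counts share arrays with the construct comparisons, and shNrf3-NC, the array high in muscle and fat genes, enters the diet comparison of shNrf3 but not that of shCtrl.

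**Figure D4:**
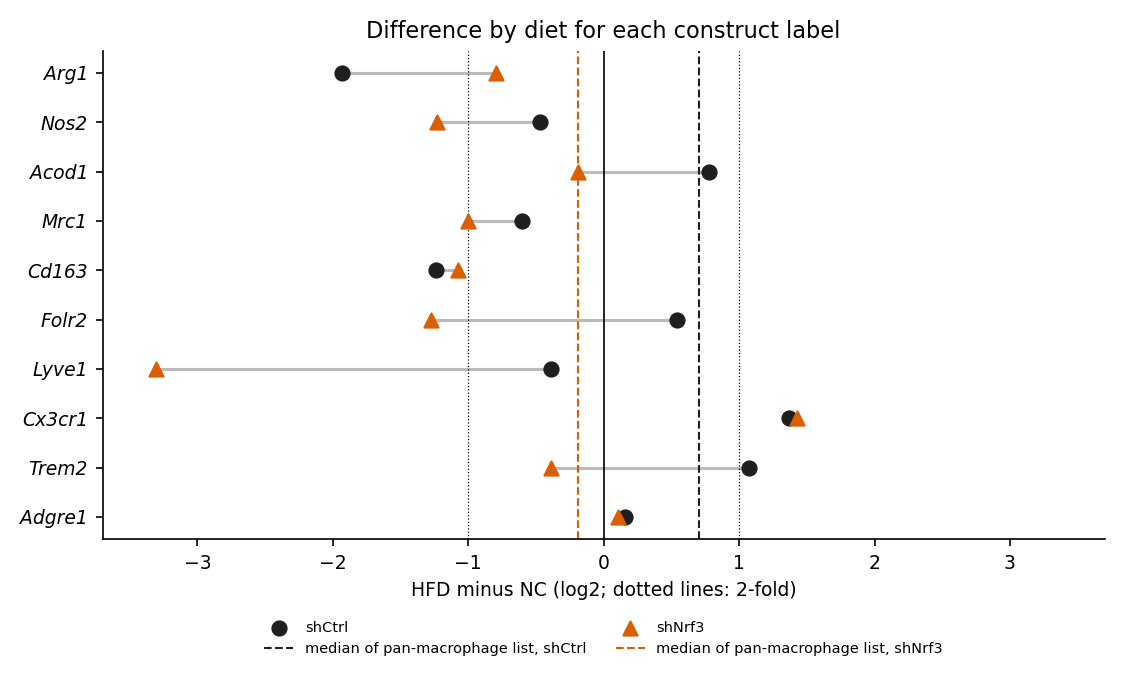
Difference by diet (HFD minus NC, log2) for each gene with shCtrl (black circles) and shNrf3 (orange triangles), with dashed lines at the pan-macrophage medians (0.70 and -0.19) and dotted lines at 2-fold. Arg1, Cd163, Mrc1, Nos2 and Lyve1 lie below 0 with both constructs, Lyve1 lowest with shNrf3 (-3.30), and Cx3cr1 lies above 1 with both.

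Arg1, Nos2, Mrc1, Cd163 and Lyve1 were lower in HFD with both constructs. Arg1 differed by -1.93 with shCtrl and -0.79 with shNrf3, Cd163 by -1.24 and -1.08, Nos2 by -0.47 and -1.23, Mrc1 by -0.60 and -1.002 and Lyve1 by -0.39 and -3.30. After cyclic loess Mrc1 differed by -1.001 and -0.96, and Nos2 with shCtrl by -0.79. With Mrc1, 3 rather than 2 genes were then 2-fold or more lower with shCtrl, against 612 of 10031 background genes. Of the 19 pan-macrophage genes, with shCtrl 7 were 2-fold or more higher in HFD and 0 lower (median 0.70, with C1qb at 2.28, Aif1 at 1.70 and Fcgr1 at 1.53), and with shNrf3 0 were higher or lower (median -0.19). The shCtrl median was 0.36 after cyclic loess and 0.45 from the median of all genes, with 5 genes higher under each. Relative to the pan-macrophage median, Arg1 differed by -2.64 with shCtrl and -0.60 with shNrf3, and Cd163 by -1.94 and -0.89. Mrc1 differed by -1.30 and -0.81, Nos2 by -1.17 and -1.04 and Lyve1 by -1.09 and -3.11.

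Cx3cr1 was higher in HFD with both constructs, by 1.37 and 1.43, from NC readings close to background. Trem2 was higher with shCtrl (1.07, but 0.90 after cyclic loess) and differed by -0.39 with shNrf3. Folr2 differed by 0.55 (0.30 after cyclic loess) and -1.27 and Acod1 by 0.78 and -0.19. Adgre1 differed by 0.16 and 0.10, and its shCtrl value turned to -0.11 after cyclic loess. The residency list had 10 of 18 genes 2-fold or more lower in HFD with shNrf3 and 0 higher (median -1.08, with Igf1 at -3.00, Ccl8 at -2.65 and Cd209f at -2.20), but 1 lower and 0 higher with shCtrl (median -0.15).

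Wider lists of activation genes did not move as blocks. Among 19 measured classical activation genes, shNrf3 was 2-fold or more higher for 6 and lower for 1 in NC, and higher for 2 and lower for 0 in HFD. They were led by the chemokine genes Cxcl9 (4.25 in NC and 3.24 in HFD) and Ccl5 (3.08 or more in NC), with Il1b at 1.04 in HFD. Il6 was the lower one in NC (-1.64) and differed by -0.97 in HFD. Tnf read below the negative control median on all 4 arrays. Among 22 measured alternative activation genes it was higher for 5 and lower for 0 in NC, and higher for 2 and lower for 1 in HFD. In NC the largest were Pdcd1lg2 (2.66), the gene of the checkpoint ligand PD-L2, Il10 (2.10 or more) and Cd200r1 (1.27), and in HFD Klf4 (-1.67), Ccl24 (1.52) and Pdcd1lg2 (1.28). Chil3, a gene often used beside Arg1 as a mouse marker of alternative activation, read below the negative control median on all 4 arrays, and Retnla, used in the same way, read 5.87 to 6.56 with differences of -0.65 in NC and -0.10 in HFD.

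Between diets the classical list had 1 gene higher and 2 lower with shCtrl, with Il6 at -2.20, and 0 higher and 5 lower with shNrf3. The alternative list had 0 higher and 1 lower with shCtrl (Ccl24, -1.93), and 0 higher and 4 lower with shNrf3, with Il10 at -2.10 or lower and Pdcd1lg2 at -1.78.

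**Figure D5:**
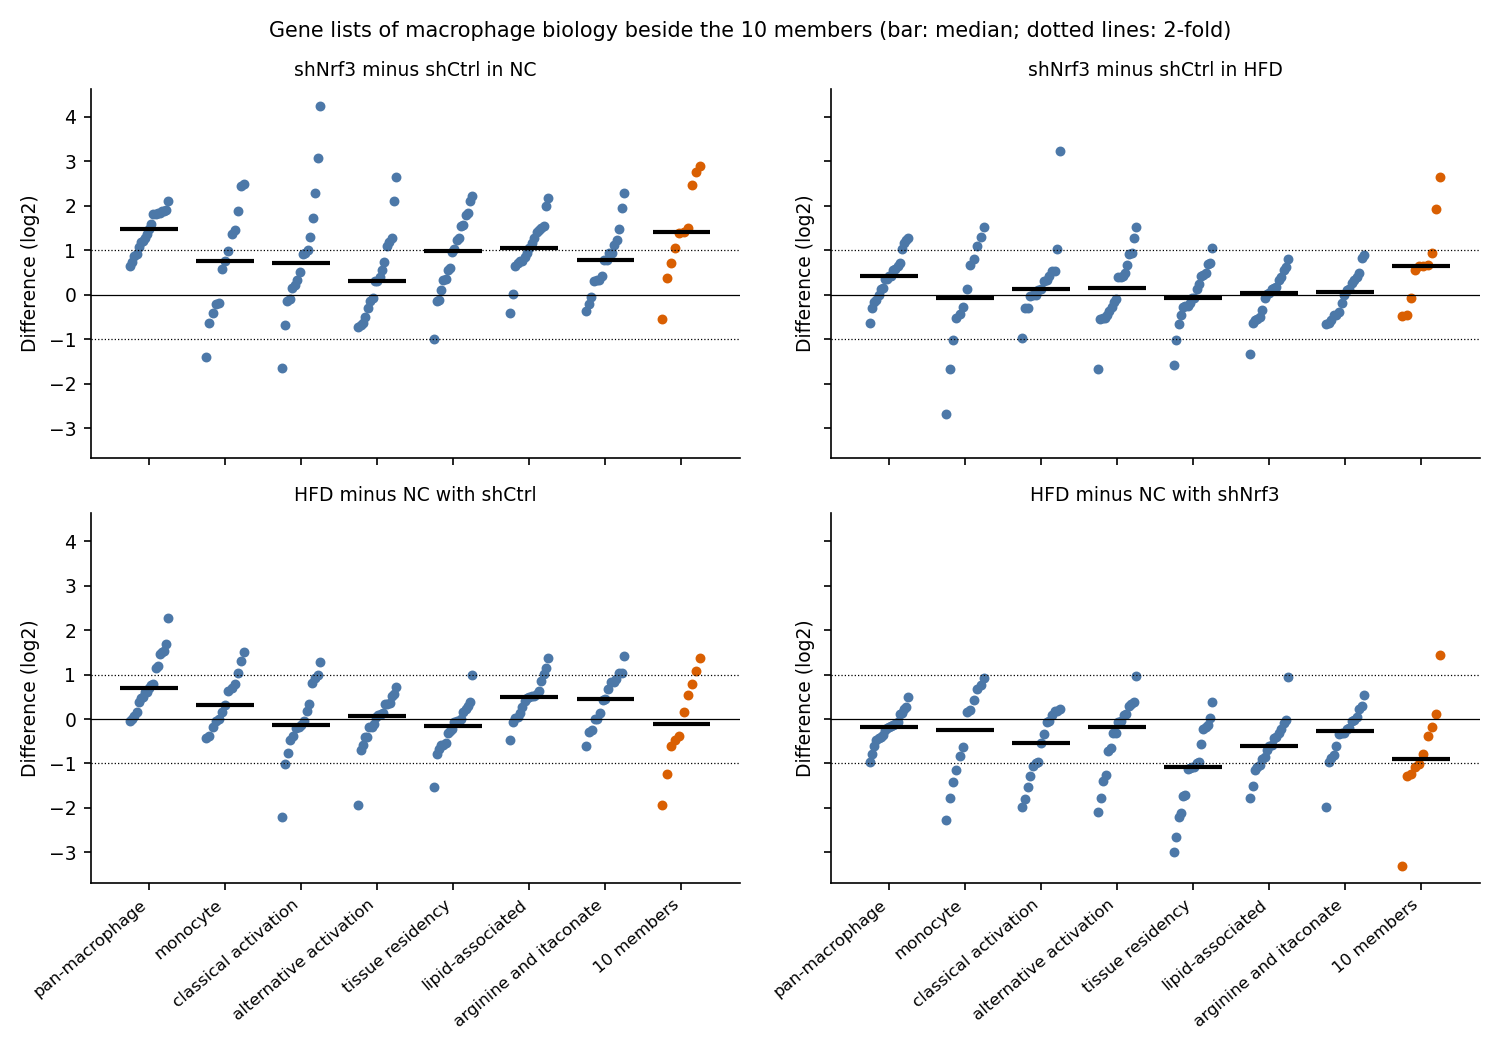
Differences of single genes (blue points) in 7 lists of macrophage biology and of the 10 genes (orange points), in the 4 comparisons, with black bars at the medians and dotted lines at 2-fold; genes with both readings below the negative control median are left out. The pan-macrophage bar lies at 1.49 for shNrf3 minus shCtrl in NC and at 0.42 in HFD, and the residency bar at -1.08 for HFD minus NC with shNrf3.

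Cytokines and regulators that set macrophage states were mostly within 2-fold. Of 30 measured, 4 were 2-fold or more higher with shNrf3 in NC (Il10, Spi1, Pparg at 1.20 and Csf1 at 1.07), with 0 lower, and HFD had 0 higher and 1 lower (Klf4). Il4, the cytokine that induces Arg1 in culture, and Csf2 read below the negative control median on all 4 arrays, and Il13 read 4.395 to 5.82. Among 22 measured ligands, adaptors and relatives of the 10, NC had 3 higher and 2 lower and HFD 1 of each. The hyaluronan synthase gene Has1 was lower in both diets (-1.21, and -1.15 or lower), while Has2 differed by -1.29 in NC and 0.10 in HFD. Lyve1 binds the hyaluronan that these enzymes make.

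Markers of other cells that could carry these transcripts varied as well, and their part was not tested. Counts here are of genes 2-fold or more apart by construct, and a gene below the negative control median on both arrays could not be counted. Of 15 monocyte genes, NC had 5 higher and 1 lower, and HFD 3 of each. They went both ways: Ly6c2, which is nearly identical to Ly6c1, differed by 2.50 and 1.10 and the chemokine receptor gene Ccr2 by 1.47 and 1.53, but Ace by -1.39 and -2.69, Vcan by 0.75 and -1.67 and Spn by -0.64 and -1.02. Neutrophil genes, relevant to Arg1 and Acod1, numbered 13, with 3 higher and 1 lower in NC, 1 lower in HFD and summed signals of 14.42, 14.69, 15.21 and 15.35 in the group order above. Those signals were higher in HFD. By diet, with shCtrl, 6 neutrophil genes were 2-fold or more higher in HFD and 1 lower (Mmp9, -1.43), and with shNrf3 2 were higher and 0 lower. By diet Arg1 differed by -1.93 with shCtrl and -0.79 with shNrf3, and Acod1 by 0.78 and -0.19. The part of neutrophils in these differences was not tested. Of 15 T and NK cell genes, NC had 5 higher with 0 lower, and HFD had 3 higher with 1 lower, with the granzyme gene Gzmb at 4.20 and 1.67. The defining dendritic cell genes Flt3, Zbtb46, Xcr1 and Clec9a and the B cell genes Ms4a1, Cd79a and Pax5 read below the negative control median on all 4 arrays. Only 4 of 10 dendritic cell genes in NC and 5 in HFD could be compared, with 0 past 2-fold, and Jchain was the only one of 7 B and plasma cell genes that could (1.37 in NC and 0.52 in HFD). Of 12 blood endothelial genes, 6 were lower in NC and 3 in HFD, with 1 higher (Eng, 1.29 in NC). Of 9 fibroblast genes, 2 were lower in NC and 8 in HFD, with 0 higher. Of 15 muscle genes, NC had 10 higher and HFD had 4 lower. Of 13 renal and epithelial genes, NC had 2 higher and 1 lower and HFD 0 of either.

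Genes nearest in pattern were found for 4 of the 10, over only 4 arrays, by the root mean square distance between log2 values centred on each gene's mean. For Arg1 they were the chemokine genes Ccl6 (0.406) and Ccl2 (0.412) and Ibsp (0.408), which encodes bone sialoprotein. For Folr2 they were Plbd1 (0.0839), the interferon-induced Gbp4 (0.126) and Ly6c1 (0.177). For Cx3cr1 they were the nucleoside transporter gene Slc29a1 (0.0793), Marveld2 (0.128), a gene of epithelial tight junctions, and Ptprf (0.207). For Lyve1 they were the T cell gene Cd3g (0.182), the heat shock gene Hsph1 (0.232) and the fast muscle troponin gene Tnni2 (0.271). With 4 arrays many genes share an order, and the distances are descriptions.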

How the data were processed

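Total RNA (100 ng) of 4 tumor samples, 1 per group, was labelled with biotin for Affymetrix arrays, per the labels' protocols. The authors normalized the arrays by RMA in Affymetrix Expression Console, per the submitters' processing notes, and deposited log2 values. Neither tool versions nor a genome build is given in the sources used here, so no coordinates are printed. The table has 28846 rows, of which 22206 are transcript rows, 6640 control rows and 5222 of those negative controls. Its highest value, 19.93, is shared by all arrays. The platform annotation gave 1 gene symbol to 19572 probe sets and several to 0, and 2634 transcript rows are unnamed here; Entrez IDs were checked against RefSeq names of GRCm38.p6. For 55 genes with several probe sets the one with the highest mean was used.

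A reading below its array's negative control median was set to that median, and such differences are written "or more" or "or lower". The background is the 10021 genes whose mean reached 5.73 (the 50th percentile of row means), and all 10 members passed. List medians leave out genes with both readings below the control median. No test was made, as each group has 1 array, which limits the precision. The difference code was tested on simulated data. Members, gene lists and the rule for named genes (all members, up to 3 genes of a list with the largest absolute difference, defining markers, nearest profiles among genes without systematic names) were chosen with earlier results of these data known. Further genes, such as Chil3, Retnla, Csf1r, Hmox1, Cd209g, Eng, Spn, Vcan and Jchain, were named after their values were seen. Alternatives were cyclic loess (limma 3.58.1, R 4.3.3), centring on array medians, no floor, a filter at the 75th percentile (8.45), no filter, the mean of probe sets, a 1.5-fold threshold and, added after seeing the data, differences counted from the median of all genes. Promoter sequences were not analysed here. Tables were made with Python 3.11.15.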

Additional observations from a re-analysis of the deposited data

Results flagged for a closer look

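Differences that went opposite ways in the 2 diets or with the 2 constructs, and were 2-fold or more apart, were found for 3 of the 10 genes. Each rests on 4 single arrays and the difference was not tested. The share of all genes that meet the same rule was not counted, so the number is not read as particular to these genes. For Lyve1 the construct difference in HFD minus that in NC was -2.92, with shNrf3 above shCtrl in NC and below it in HFD. For Folr2 the same quantity was -1.82: shNrf3 was higher in both diets, but HFD was above NC with shCtrl and below it with shNrf3. The Folr2 diet difference with shCtrl, 0.55, was 0.30 after cyclic loess and 0.29 from the median of all genes. For Trem2 it was -1.46, with opposite signs both by construct and by diet; its HFD construct difference was near 0 and turned sign after cyclic loess (0.04). These 3 are among the 8 of 10 genes with their highest reading on shNrf3-NC, the array that was also highest in muscle and adipocyte markers. The share of all genes highest on that array was not counted.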

How the results depend on the processing

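Of 260 values of single genes under an alternative (40 differences), 4 changed sign and 9 crossed 2-fold, and 0 differences of 2-fold or more changed sign. Only cyclic loess, centring and counting from the median of all genes could change such a value, so many of the 260 were fixed in advance. The sign changes were those of Trem2 in HFD (0.04 after cyclic loess and 0.07 from the median of all genes) and Adgre1 by diet with shCtrl (-0.11 and -0.10). The median over the 10 genes for HFD minus NC with shCtrl, -0.11, was -0.31 after cyclic loess, -0.0068 after centring, -0.60 with the strict filter and -0.37 from the median of all genes. The 2 genes higher in that comparison became 1 after cyclic loess and 1 from the median of all genes. Among background genes 844 of 10031 and 811 of 10021 were higher under these. The strict filter kept 5 of the 10 genes, so its counts are lower by construction: 4 higher with shNrf3 in NC, 0 higher in HFD with shCtrl, and 0 higher and 3 lower in HFD with shNrf3. Of all 5475 genes past that filter, 836, 859, 46 and 244 did so in the same order. At 1.5-fold, 6 rather than 2 genes were higher with shNrf3 in HFD. The share of all genes past that lower threshold was not computed, so the rise is not read as particular to these genes. Leaving out an array leaves no comparison of that pair, so no such value exists, and the comparisons without shNrf3-NC are those in HFD and by diet with shCtrl. No floor, no filter and the mean of probe sets left all values of the 10 genes as they were. That outcome was fixed in advance, as each gene has 1 probe set and reads above the control median on every array. The strict filter likewise cannot alter the difference of a gene it keeps. Signal over background limits Cx3cr1, Lyve1, Trem2 and the shCtrl readings of Acod1 and Folr2 most.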
